A study of Mus musculus with 8 samples.

Results

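The bone morphogenetic protein (BMP) ligand genes Bmp4, Bmp6 and Bmp7, the receptor genes Bmpr1a, Bmpr1b and Bmpr2, and the inhibitor of DNA binding genes Id1, Id2, Id3 and Id4 were followed in RNA-seq libraries of the embryonic mouse cortex. These 10 genes were picked by symbol from the 23284 symbols of the count files, and all 10 passed the filter on low counts that left 14696 genes to test. The tissue was the dorsal cortex of C57BL/6 embryos at E15.5, dissected free of meninges and ganglionic eminences, with 4 libraries labelled WT (ErbB4+/+) and 4 labelled ErbB4-/-. The ErbB4-/- line lacks the receptor tyrosine kinase ErbB4 except in heart muscle, where an ErbB4 transgene under a cardiac promoter keeps the embryos alive, and both lines were bred as separate homozygous colonies. The comparison asks which transcripts differ in the cortex when ErbB4 signaling is absent.

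BMPs are secreted ligands of the TGF-beta superfamily. They bind a complex of type I receptors (such as BMPR1A and BMPR1B) and type II receptors (such as BMPR2), the type I receptor phosphorylates SMAD1, SMAD5 and SMAD9, and these enter the nucleus with SMAD4 to activate target genes, among which the Id genes are the classical ones. ID proteins have a helix-loop-helix domain but no basic region, so they pair with E proteins and keep them from binding DNA together with proneural factors. In the developing cortex, BMPs are made by the dorsal midline, choroid plexus and meninges, and BMP signaling is known for patterning the dorsal midline and, later, for favouring astrocytes over neurons.

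The libraries held between 28205703 and 48871480 counted reads, and levels are given as CPM, the read count of a gene per 1000000 counts of the normalized library size. Erbb4 itself was not lower in the libraries labelled ErbB4-/-, at 18.3 ± 6.81 CPM (SD, n = 4) in WT and 22.4 ± 1.92 CPM (SD, n = 4) in ErbB4-/- (log2 fold change 0.28, edgeR adjusted p = 0.812), so every direction below is one between labels. Counts over a whole gene do not show whether part of it is deleted. WT replicate 1 also stood apart from the rest, at −38.9 on the first principal component where the other 7 libraries were at −6.07 or above, and its deviation from them fell with transcript length (Spearman's rho −0.58 across genes, against 0.0378 to 0.223 in the others). The female-specific transcript Xist was at 983 CPM or more in WT replicates 1 to 3 and at 3.82 CPM or less in WT replicate 4 and in all libraries labelled ErbB4-/-, so that outside WT replicate 4 sex and genotype cannot be told apart. Nothing in the sources says that the libraries of a group came from separate litters, and p-values measure the spread between these samples.

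None of the 10 genes differed between the genotypes after adjustment. With an adjusted p under 0.05 in edgeR's quasi-likelihood test (Benjamini-Hochberg over all genes tested), 0 of 10 were called, where 4 of the 14696 tested genes were (0.0272%). At an unadjusted p under 0.05 there were 2, Bmp7 on the higher side and Id4 on the lower, where 812 of all tested genes (5.53%) passed, 441 (3.00%) higher and 371 (2.52%) lower. That count of 2 was 0 without WT replicate 3, WT replicate 4, ErbB4-/- replicate 1 or ErbB4-/- replicate 3 and with Xist as a covariate. It was 1 without ErbB4-/- replicate 2, 3 without WT replicate 2 or with each library's trend with transcript length removed, and 4 without ErbB4-/- replicate 4. The genes behind the count also changed. With the length trend removed they were Bmp7, Id2 and Id3, without Id4. When WT replicate 1 was left out they were Id2 and Id4, without Bmp7. DESeq2 called 0 of the 10 with 2 at an unadjusted p under 0.05, and limma-voom called 0 with 1. In none of the 10 did the libraries of one genotype all lie on one side of the other, which occurred in 491 (3.34%) of the tested genes. The log2 fold change of libraries labelled ErbB4-/- over WT was above 0 in 6 genes and below 0 in 4, with a median of 0.06, against −0.00 over all tested genes, of which 49.2% were above 0. With single libraries left out, between 5 and 8 of the 10 were above 0, and the median was lowest, 0.02, when ErbB4-/- replicate 3 was left out and highest, 0.15, when ErbB4-/- replicate 1 was.

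**Figure D1:**
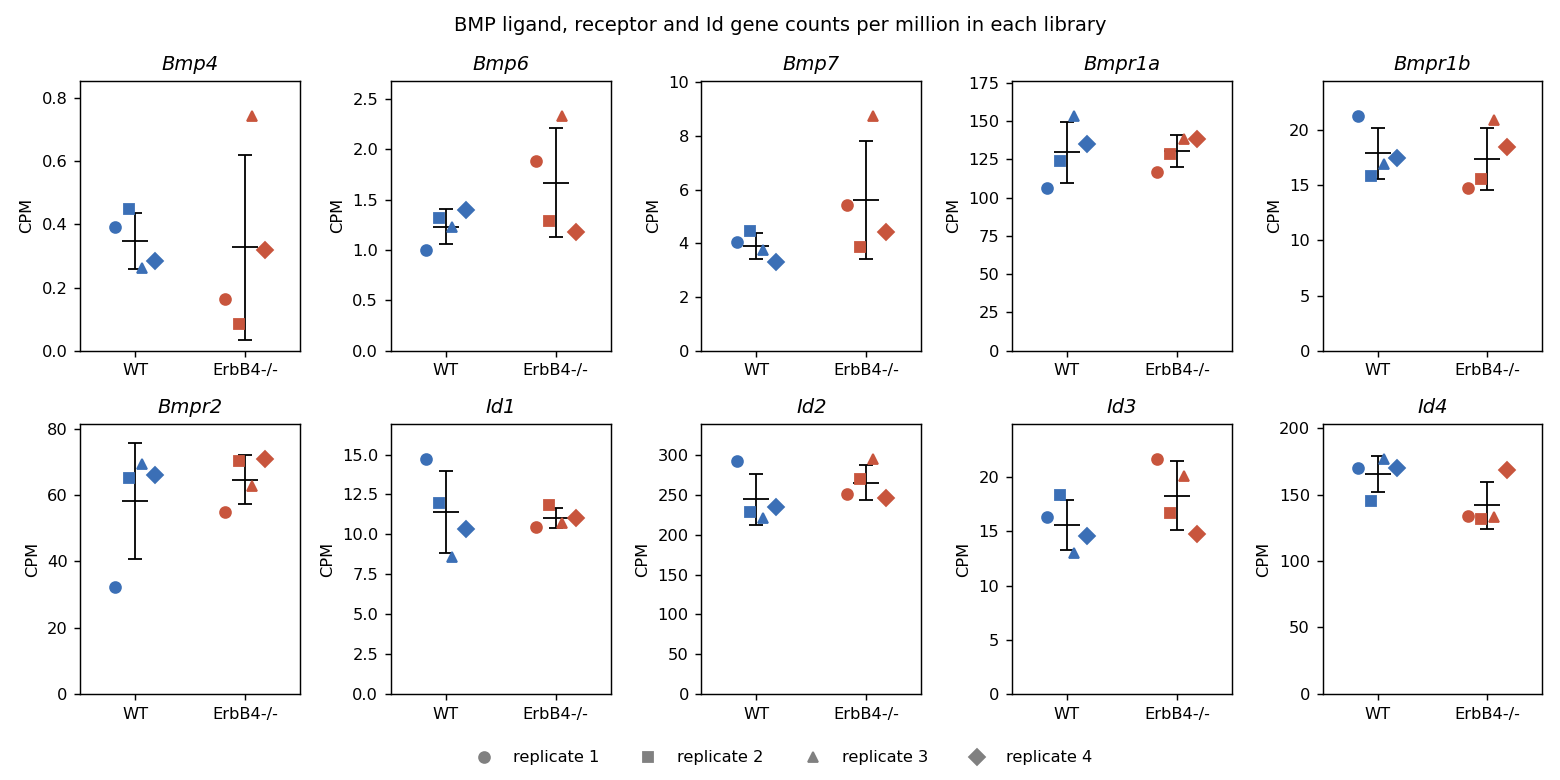
Level of each gene (CPM, linear axis from 0) in each of the 8 libraries, with marker shape giving the replicate number and bars giving the mean and SD of 4 libraries. ErbB4-/- replicate 3 is the highest library for Bmp4, Bmp6 and Bmp7, WT replicate 1 the lowest for Bmpr2, and ErbB4-/- replicate 4 sits among the WT libraries for Id4.

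The ligand genes were the scarcest of the 10. Bmp4, which patterns the dorsal midline, lies on chromosome 14 of NCBIM37 (the mm9 build, to which the reads were mapped) at chr14:47003195-47010344 on the minus strand. It had 0.39, 0.45, 0.26 and 0.28 CPM in WT replicates 1 to 4 and 0.16, 0.09, 0.74 and 0.32 CPM in ErbB4-/- replicates 1 to 4. The libraries labelled ErbB4-/- thus held both the lowest values (replicates 1 and 2) and the highest (replicate 3), from 3 to 29 reads per library. Its log2 fold change was −0.07 (SE 0.55, 95% interval −1.26 to 1.12, edgeR adjusted p = 0.984). Without ErbB4-/- replicate 3 the value was −0.89, and without ErbB4-/- replicate 2 it was 0.23.

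Bmp6 encodes a ligand of the BMP5, BMP6 and BMP7 subgroup and lies at chr13:38436995-38592183 on the plus strand. Its level was 1.00, 1.32, 1.23 and 1.40 CPM in the WT libraries and 1.89, 1.29, 2.33 and 1.18 CPM in those labelled ErbB4-/-. Replicates 1 and 3 of the latter exceeded every WT library, while replicates 2 and 4 were inside the WT range. Bmp6 had a log2 fold change of 0.44 (SE 0.24, 95% interval −0.09 to 0.97, edgeR adjusted p = 0.810).

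Bmp7, the most abundant of these ligand genes, lies at chr2:172693513-172765822 on the minus strand. It had 4.07, 4.46, 3.75 and 3.30 CPM in WT replicates 1 to 4 and 5.44, 3.85, 8.73 and 4.42 CPM in ErbB4-/- replicates 1 to 4. Replicate 3 of the libraries labelled ErbB4-/- was far above all others, replicate 1 was above every WT library and the remaining 2 were inside the WT range. The means were 3.90 ± 0.489 CPM (SD, n = 4) in WT and 5.61 ± 2.18 CPM (SD, n = 4) in ErbB4-/-, a log2 fold change of 0.53 (SE 0.23, 95% interval 0.03 to 1.04). The unadjusted edgeR p was 0.0400 and the adjusted p 0.810, and an exact permutation test (two-sided, 70 ways to assign the genotypes) gave p = 0.143. The smallest p this design allows is 0.0286.

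The library with the highest ligand levels also had the highest choroid plexus markers. The summed level of 7 markers of choroid plexus and cortical hem (Ttr, Folr1, Otx2, Kcne2, Lmx1a, Wnt3a and Rspo2) was 9.67 to 28.4 CPM in the WT libraries, 13.6 to 25.9 CPM in ErbB4-/- replicates 1, 2 and 4, and 609 CPM in ErbB4-/- replicate 3, which was the highest library for 5 of the 7. Ttr, which encodes transthyretin, a major secreted protein of choroid plexus, gave 572 CPM of that sum, against 0.571 to 8.76 CPM elsewhere. The summed level of 9 meningeal fibroblast markers, of which Col3a1 was the most abundant, was 22.0 CPM in the same library, against 13.3 to 16.8 CPM in the others. ErbB4-/- replicate 3 was the highest library for 5 of these 9. Dcn, Foxc1 and Foxd1 were there within the range of the other libraries, and Aldh1a2 was at 0. Leaving out ErbB4-/- replicate 3 gave a log2 fold change of 0.24 for Bmp7 and 0.25 for Bmp6 (edgeR adjusted p = 0.941 for both). In bulk tissue, more cells of a type and more RNA per cell cannot be told apart, and the part of these tissues in the ligand levels was not tested.

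**Figure D2:**
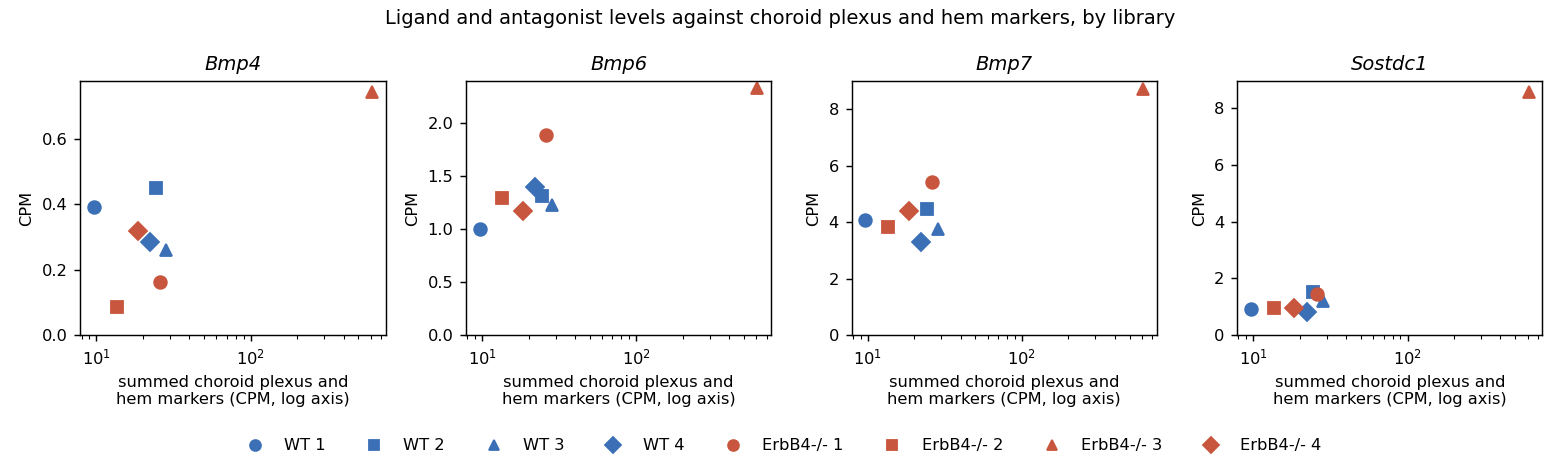
Bmp4, Bmp6, Bmp7 and the BMP antagonist gene Sostdc1 (CPM, linear axis) against the summed level of 7 choroid plexus and hem markers (CPM, log axis), 1 point per library. ErbB4-/- replicate 3 lies alone at 609 CPM of markers and has the highest level of all 4 genes, and the other 7 libraries lie at or below 28.4 CPM.

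The receptor genes were more abundant than the ligand genes, and their fold changes were smaller than those of Bmp6 and Bmp7. Bmpr1a, a type I receptor gene, lies at chr14:35223920-35316527 on the minus strand. Its level was 106, 124, 153 and 135 CPM in WT and 117, 128, 138 and 138 CPM in ErbB4-/-. Every library labelled ErbB4-/- was within the WT range, and the log2 fold change was 0.01 (SE 0.10, 95% interval −0.21 to 0.23, edgeR adjusted p = 0.987).

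Bmpr1b encodes the second type I receptor and lies at chr3:141500100-141832389 on the minus strand. It had 21.3, 15.9, 17.0 and 17.4 CPM in WT and 14.8, 15.54, 20.9 and 18.4 CPM in ErbB4-/-. The genotypes overlapped, with the highest value in WT replicate 1 and the lowest in ErbB4-/- replicate 1. Between the genotypes Bmpr1b had a log2 fold change of −0.04 (SE 0.12, 95% interval −0.31 to 0.23, edgeR adjusted p = 0.954).

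Bmpr2, the type II receptor gene, lies at chr1:59821481-59927703 on the plus strand of the chromosome that also carries Erbb4. It had 32.4, 65.1, 69.6 and 66.2 CPM in WT replicates 1 to 4 and 55.1, 70.4, 62.8 and 70.8 CPM in ErbB4-/- replicates 1 to 4. A single library, WT replicate 1, was far below all others, and the remaining 7 overlapped. For Bmpr2 the fit gave a log2 fold change of 0.15 (SE 0.19, 95% interval −0.27 to 0.57, edgeR adjusted p = 0.866), and it was −0.05 without WT replicate 1. Erbb4 was likewise lowest in that library, the one whose values fell with transcript length. With each library's trend with transcript length removed, the Bmpr2 value was 0.15, as before. That setting took the length of Bmpr2 from its only annotated transcript (3507 nucleotides). The part of length in the low Bmpr2 level of WT replicate 1 was not tested.

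Id2 and Id4 were the most abundant Id genes, and their log2 fold changes had opposite signs. Their promoters are shown for that reason, and because both hold GGCGCC, a GC-rich motif known to be bound by BMP-activated SMADs. The sequences are the 250 bases upstream of the RefSeq start (RefSeq table of GRCm38.p6), each with a single exact match in NCBIM37, at chr12:25780958-25781207 on the minus strand for Id2 and at chr13:48356235-48356484 on the plus strand for Id4. They are written 5′ to 3′ with GGCGCC in capitals.
Id2: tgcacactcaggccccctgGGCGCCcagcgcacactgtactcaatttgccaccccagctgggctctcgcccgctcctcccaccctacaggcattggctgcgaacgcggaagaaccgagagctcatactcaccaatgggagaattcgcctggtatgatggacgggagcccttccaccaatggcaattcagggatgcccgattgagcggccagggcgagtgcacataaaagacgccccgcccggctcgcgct
Id4: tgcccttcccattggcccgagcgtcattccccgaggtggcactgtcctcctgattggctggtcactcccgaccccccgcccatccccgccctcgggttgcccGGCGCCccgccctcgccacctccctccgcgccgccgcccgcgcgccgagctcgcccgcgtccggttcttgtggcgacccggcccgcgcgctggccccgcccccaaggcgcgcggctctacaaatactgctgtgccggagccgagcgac
GGCGCC, which reads the same on both strands, starts 231 bases upstream of the Id2 start and 148 bases upstream of the Id4 start. All distances are counted from the RefSeq start. For Id4 the window ends at base 48356484, while the gene starts at base 48356796 in the NCBIM37 annotation, so the starts differ. For Id2 they are the same. It occurs in 3140 of 32536 windows of 250 bases in the table (9.65%). The other motif searched, the SMAD box CAGAC or its reverse complement GTCTG, is found in 13716 windows (42.2%) and is not in either of these. The windows have a GC content of 62.8% for Id2 and 75.6% for Id4. RefSeq entries were found for 8 of the 10 genes, without Bmp7 and Id1, and GGCGCC was also present in the windows of Bmpr1a and Bmpr2. CAGAC or GTCTG was present in those of Id3 (167 and 68 bases upstream), Bmp6 (119 bases) and 2 of the 3 windows of Bmpr1b (245 and 128 bases). A match of letters is a description of the sequence and not a binding site.

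Id4, which in the cortex is expressed by dividing progenitors, lies at chr13:48356796-48359405 on the plus strand. It had 170, 145, 176 and 170 CPM in WT replicates 1 to 4 and 134, 132, 133 and 169 CPM in ErbB4-/- replicates 1 to 4. Replicates 1 to 3 of the libraries labelled ErbB4-/- were below every WT library, while replicate 4 was at the WT level. The means were 165 ± 13.9 CPM (SD, n = 4) and 142 ± 18.0 CPM (SD, n = 4), and the log2 fold change was −0.22 (SE 0.09, 95% interval −0.42 to −0.03). The unadjusted edgeR p was 0.0277 and the adjusted p 0.810, and the exact two-sided permutation test gave p = 0.0571. Leaving out ErbB4-/- replicate 4 gave a log2 fold change of −0.32 (unadjusted p = 0.00119, edgeR adjusted p = 0.251), and without any other single library it was between −0.28 and −0.19. The unadjusted edgeR p was 0.0654 to 0.0813 when WT replicate 3 or 4 or ErbB4-/- replicate 1, 2 or 3 was left out, and 0.0770 with the length trend removed (log2 fold change −0.17).

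Id2, the most abundant of the 10 genes, lies at chr12:25778666-25780957 on the minus strand. Its level was 293, 229, 222 and 235 CPM in WT and 251, 270, 295 and 246 CPM in ErbB4-/-. All 4 libraries labelled ErbB4-/- were above WT replicates 2 to 4, and WT replicate 1 was above 3 of them. Over all libraries Id2 had a log2 fold change of 0.12 (SE 0.09, 95% interval −0.08 to 0.32, edgeR adjusted p = 0.810). Without WT replicate 1 it was 0.22 (unadjusted p = 0.00375, edgeR adjusted p = 0.715), and with each library's trend with transcript length removed it was 0.20 (unadjusted p = 0.00496, edgeR adjusted p = 0.570). It was 0.0646 without ErbB4-/- replicate 3 (unadjusted p = 0.509, edgeR adjusted p = 0.946) and 0.0741 without WT replicate 3 (unadjusted p = 0.453, edgeR adjusted p = 0.822).

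Id3, a classical immediate target of BMP signaling that is also strongly expressed in blood vessels, lies at chr4:135699412-135701670 on the plus strand. It had 16.4, 18.3, 13.0 and 14.5 CPM in WT and 21.6, 16.7, 20.2 and 14.7 CPM in ErbB4-/-. Replicates 1 and 3 of the libraries labelled ErbB4-/- exceeded every WT library, as they did for Bmp6 and Bmp7, and the other 2 were inside the WT range. Id3 had a log2 fold change of 0.24 (SE 0.14, 95% interval −0.06 to 0.54, edgeR adjusted p = 0.810). With single libraries left out, the Id3 value was lowest, at 0.15, without ErbB4-/- replicate 1 and highest, at 0.33, without WT replicate 2. The summed level of 9 endothelial markers, led by Cldn5, was 164 to 169 CPM in WT and 162 to 171 CPM in ErbB4-/-.

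Id1, a BMP target widely used as a readout of the pathway, lies at chr2:152561987-152563146 on the plus strand. It had 14.7, 11.9, 8.60 and 10.3 CPM in WT and 10.5, 11.9, 10.7 and 11.02 CPM in ErbB4-/-. The libraries labelled ErbB4-/- were close to each other and inside the wider WT range. Id1 had a log2 fold change of −0.04 (SE 0.14, 95% interval −0.35 to 0.27, edgeR adjusted p = 0.955), and it was 0.10 without WT replicate 1.

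**Figure D3:**
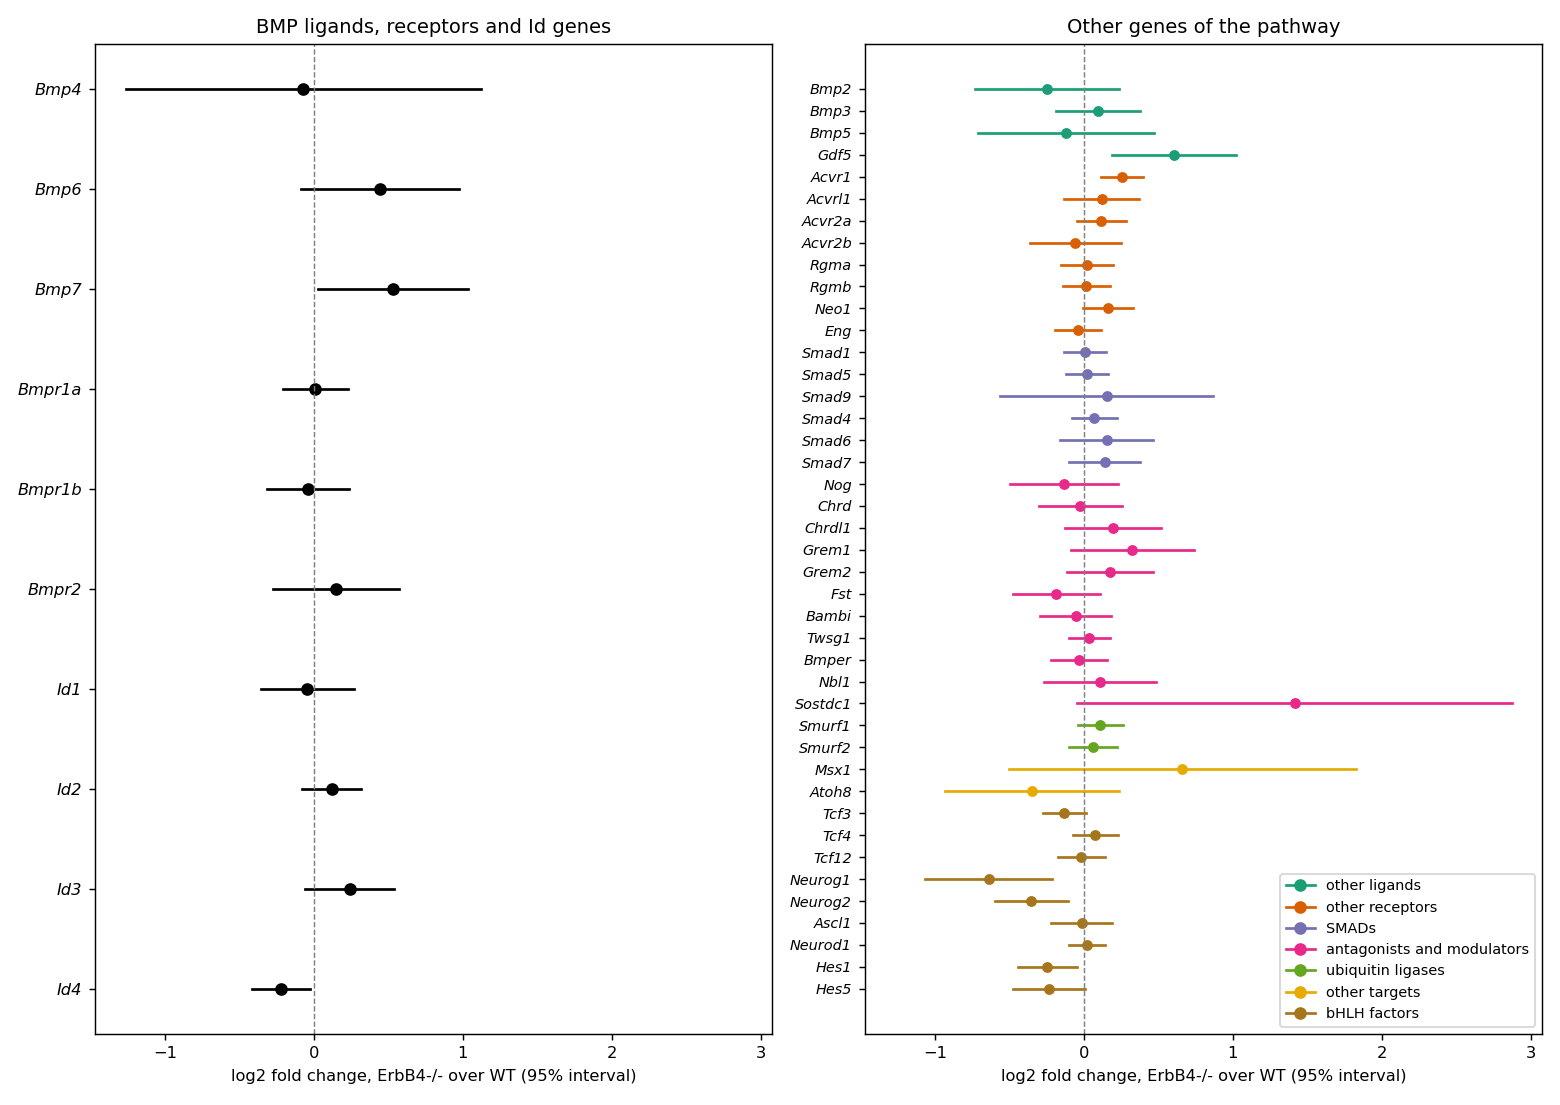
Log2 fold change of libraries labelled ErbB4-/- over WT (horizontal axis) with its 95% interval from edgeR for the 10 genes (left) and for the 42 tested genes of the other lists of the pathway (right, coloured by role). Among the 10 genes only the intervals of Bmp7 (0.03 to 1.04) and Id4 (−0.42 to −0.03) leave out 0, and none of the genes drawn passed an adjusted p of 0.05.

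Levels were compared between genes per kilobase of the longest annotated transcript. Over the 8 libraries Id2 was at 201 CPM per kb and Id4 at 92.6 CPM per kb. Bmpr1a, Bmpr2, Id3 and Id1 followed at 21.8, 17.5, 13.2 and 9.66 CPM per kb. Bmpr1b was at 3.30, Bmp7 at 1.30, Bmp6 at 0.434 and Bmp4 at 0.163 CPM per kb. In this order each gene exceeded the next in 8 of 8 libraries, except that Bmpr2 exceeded Id3 in 6 of 8. The ranges over libraries overlapped for the neighbours Bmpr1a and Bmpr2, Bmpr2 and Id3, Id3 and Id1, and Bmp6 and Bmp4. The position of Bmpr2 rests on its only annotated transcript, which is 3507 nucleotides long.

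The summed Id level was alike in the genotypes, at 314 ± 30.1 CPM per kb in WT and 318 ± 13.8 CPM per kb in ErbB4-/- (SD, n = 4 each). Its make-up was 61.1 ± 2.47% Id2 and 31.9 ± 3.20% Id4 in WT, and 65.6 ± 3.33% Id2 and 26.9 ± 3.67% Id4 in ErbB4-/- (SD, n = 4 each). ErbB4-/- replicates 1 to 3 had 65.0% to 68.8% Id2, above the 58.5% to 64.3% of the WT libraries, and replicate 4 had 61.2%. Bmpr1a was 6.63 ± 1.53 times Bmpr1b per kb in WT and 6.80 ± 0.634 times in ErbB4-/- (SD, n = 4 each), with the lowest ratio, 4.49, in WT replicate 1.

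**Figure D4:**
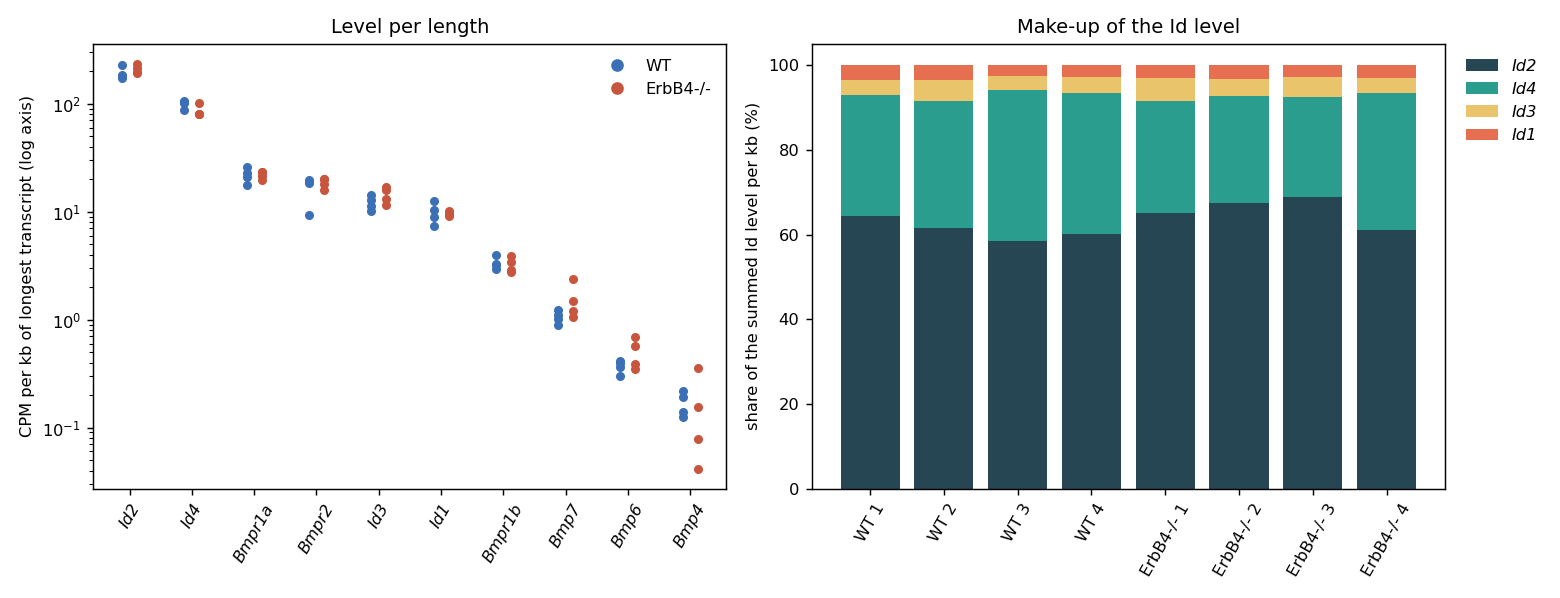
Left, level per length (CPM per kb of the longest transcript, log axis) of the 10 genes in the 4 WT libraries and the 4 labelled ErbB4-/-. Right, the share of Id1 to Id4 in the summed Id level of each library (%), where Id2 makes up 58.5% to 68.8% and Id4 23.8% to 35.6%.

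The other genes of the pathway were read from lists of ligands, receptors, SMADs, antagonists, ubiquitin ligases, targets and helix-loop-helix partners. Of 54 genes, all 54 were in the files and 42 passed the filter, and edgeR's test called 0 of them in either direction at an adjusted p under 0.05. At an unadjusted p under 0.05, 2 were higher (Gdf5 and Acvr1) and 3 lower (Neurog1, Neurog2 and Hes1), where 3.00% and 2.52% of all tested genes were. That total of 5 was 5 to 8 with single libraries left out, 8 of 43 without ErbB4-/- replicate 4 and 7 of 42 without WT replicate 3. The log2 fold change was above 0 in 25 and below 0 in 17, with a median of 0.02, which was from 0.01 without WT replicate 1 to 0.07 without WT replicate 2. DESeq2 and limma-voom also called 0 of them.

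Of the 11 other ligand genes, only 4 passed the filter, with Bmp3 the most abundant at 6.01 ± 0.801 CPM in WT and 6.45 ± 0.744 CPM in ErbB4-/- (SD, n = 4 each). Gdf5, a ligand that signals mainly through BMPR1B, had 2.28, 1.80, 2.24 and 2.14 CPM in WT and 3.07, 3.53, 4.02 and 2.22 CPM in ErbB4-/-. Replicates 1 to 3 of the libraries labelled ErbB4-/- were above every WT library and replicate 4 was among the WT libraries. Gdf5 had a log2 fold change of 0.60 (SE 0.19, unadjusted p = 0.00816, edgeR adjusted p = 0.810).

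Of the 9 other receptor and coreceptor genes, 8 were tested, 6 with a log2 fold change above 0 and a median of 0.07. Without WT replicate 1, 4 of the 8 were above 0 and the median was 0.0080, and it was 0.12 without WT replicate 2 and 0.04 without WT replicate 3. Acvr1, which encodes the type I receptor ALK2 used by BMP6 and BMP7, had 40.5, 42.0, 41.9 and 39.8 CPM in WT and 48.7, 52.4, 50.4 and 44.7 CPM in ErbB4-/-. Every library labelled ErbB4-/- was above every WT library. Acvr1 had a log2 fold change of 0.26 (SE 0.06, unadjusted p = 0.00191, edgeR adjusted p = 0.736; exact two-sided permutation p = 0.0286, the smallest possible), and it was 0.24 without ErbB4-/- replicate 3, 0.25 without WT replicate 1 and 0.29 without ErbB4-/- replicate 4. Neo1, a coreceptor partner of the RGM proteins and the most abundant of this list, had 328 ± 36.9 CPM in WT and 367 ± 16.5 CPM in ErbB4-/- (SD, n = 4 each), a log2 fold change of 0.16 (edgeR adjusted p = 0.810) that was 0.09 without WT replicate 1 and 0.10 with the length trend removed.

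All 6 SMAD genes of the branch (Smad1, Smad5, Smad9, Smad4, Smad6 and Smad7) were tested, 6 with a log2 fold change above 0, a median of 0.10 and no unadjusted p under 0.05. That median was 0.04 without ErbB4-/- replicate 3, the library with high choroid plexus markers. It was 0.07, 0.06 and 0.06 without WT replicate 1, WT replicate 3 and ErbB4-/- replicate 4, with 5 of 6 above 0 in each case. Smad5, the most abundant, had 261 ± 20.9 CPM in WT and 265 ± 11.6 CPM in ErbB4-/- (SD, n = 4 each). Its log2 fold change of 0.02 was −0.02 without WT replicate 1. The ubiquitin ligase genes Smurf1 and Smurf2 had a median of 0.09 (0.02 without WT replicate 1), with Smurf1 at 119.9 ± 10.4 CPM in WT and 129 ± 6.23 CPM in ErbB4-/- (SD, n = 4 each).

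Of the 14 genes of extracellular antagonists and modulators, 11 were tested, none at an unadjusted p under 0.05, with a median log2 fold change of 0.04 that was between 0.01 and 0.06 with single libraries left out. Twsg1, a BMP-binding protein gene and the most abundant of them, had 126 ± 9.29 CPM in WT and 129 ± 5.81 CPM in ErbB4-/- (SD, n = 4 each). The widest interval was that of Sostdc1, an antagonist gene expressed in choroid plexus, which was chosen after its values were seen. It had 0.83 to 1.54 CPM in 7 libraries and 8.58 CPM in ErbB4-/- replicate 3, and its log2 fold change of 1.41 was 0.01 without that library. Msx1, a dorsal midline target, likewise had 0.18 to 0.61 CPM in 7 libraries and 1.51 CPM in that one. Atoh8, the most abundant of the other target genes, had 2.08 ± 0.650 CPM in WT and 1.62 ± 0.472 CPM in ErbB4-/- (SD, n = 4 each, edgeR adjusted p = 0.810).

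The helix-loop-helix genes on which ID proteins act, directly or through E proteins, had the lowest median log2 fold change of the 7 lists, except without ErbB4-/- replicate 3, where the other target genes were lower at −0.18. Of 9 tested, 7 had a log2 fold change below 0. On the lower side 3 had an unadjusted p under 0.05, where 2.52% of all tested genes did, and the number at that p in either direction was 2 to 5 with single libraries left out (5 without WT replicate 3 or ErbB4-/- replicate 4). The list had a median of −0.13, which was between −0.18 and −0.10 with single libraries left out. Neurog2, the proneural gene of dorsal cortical progenitors, had 234, 179, 181 and 218 CPM in WT and 142, 137, 176 and 181 CPM in ErbB4-/-. Replicates 1 to 3 of the libraries labelled ErbB4-/- were below every WT library, and replicate 4 was level with the lower WT libraries. The log2 fold change was −0.35 (SE 0.11, unadjusted p = 0.00864, edgeR adjusted p = 0.810). Neurog1, its paralog, had 11.9, 7.83, 9.80 and 10.5 CPM in WT and 4.97, 4.91, 7.02 and 8.89 CPM in ErbB4-/-. The log2 fold change was −0.64 (SE 0.19, unadjusted p = 0.00659, edgeR adjusted p = 0.810), again with replicates 1 to 3 below every WT library. Hes1, a Notch effector gene that represses proneural genes, had 19.97, 16.8, 19.7 and 20.6 CPM in WT and 15.6, 14.97, 16.3 and 18.2 CPM in ErbB4-/-, a log2 fold change of −0.24 (SE 0.09, edgeR adjusted p = 0.810). The E protein gene Tcf4, the most abundant of the list, had 928 ± 73.3 CPM in WT and 979 ± 60.3 CPM in ErbB4-/- (SD, n = 4 each).

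Id4 and these genes are expressed in progenitors, and progenitor markers were read beside them. The summed level of 7 radial glia markers was 1813 to 2356 CPM in WT and 1819 to 1975 CPM in ErbB4-/-, and 5 of the 7 had a log2 fold change below 0. Vim, the most abundant of them, had a log2 fold change of −0.19 (unadjusted p = 0.0303, edgeR adjusted p = 0.810), which was −0.12 without WT replicate 1, and 3 of the 7 (Pax6, Nes and Vim) were lower at an unadjusted p under 0.05, where 2.52% of all tested genes were. The others had log2 fold changes of −0.27 (Pax6), −0.23 (Nes), −0.12 (Sox2), −0.04 (Fabp7), 0.09 (Slc1a3) and 0.21 (Hopx). Without WT replicate 1, Fabp7 was at 0.11 and Sox2 at −0.07, and 4 of the 7 were below 0. Without ErbB4-/- replicate 3, Sox2 was at −0.08 and Hopx at 0.11. With single libraries left out, 1 to 4 of the 7 were at that p in either direction (1 without ErbB4-/- replicate 1 or 2, 4 without WT replicate 1). The 4 without WT replicate 1 were Pax6 and Nes on the lower side and Fabp7 and Hopx (0.29) on the higher. Vim then had an unadjusted edgeR p of 0.0565. The part of progenitor number in the Id4, Neurog1 and Neurog2 values was not tested. Other marker sums overlapped between the genotypes, at 72.2 to 95.2 CPM in WT and 79.6 to 100.5 CPM in ErbB4-/- for pericytes, and at 439 to 597 and 431 to 606 CPM for the ganglionic eminence. Those of microglia were at 32.9 to 37.5 and 34.8 to 37.8 CPM, and those of cortical neurons at 6502 to 6731 and 6638 to 7077 CPM. Markers of dorsal cortex identity summed to 1359 to 1563 CPM in WT and 1438 to 1511 CPM in ErbB4-/-, so the markers of the labelled tissue were present. Red blood cell genes, with Hba-a1 at 0 in every library, summed to 31.8 to 56.6 CPM in WT and 20.8 to 35.2 CPM in ErbB4-/-.

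The genes whose log2 CPM followed each Id gene most closely were named as a description over the 8 libraries, with no test. For Id4 they were Cdc25c, a mitotic phosphatase gene (Pearson's r = 0.980), the DNA ligase gene Lig1 (r = 0.979) and Parp1 (r = 0.974), and their r without WT replicate 1 was 0.982, 0.991 and 0.971. For Id2 they were Chmp3 (r = 0.986), Dok4 (r = 0.957) and Macrod1 (r = 0.949). For Id3 they were the transcription factor gene Ets2 (r = 0.965), Rapgef3 (r = 0.960) and Zdhhc14 (r = 0.957). For Id1 they were Acbd6 (r = 0.965), Taf10 (r = 0.963) and Mir682 (r = 0.955), the last at r = 0.896 without WT replicate 1.

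Some counts could include reads of an overlapping gene or lack reads from shared bases. The libraries do not keep the strand, and the counting mode is not given. In the annotation of NCBIM37, exons of Bmp4 share 89 bases with Gm15217, those of Bmp6 share 236 bases with Txndc5, those of Bmpr1a share 290 bases with Gm17110 and those of Id4 share 171 bases with A330033J07Rik. For the other 6 genes no exonic overlap was found.

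The directions held to different degrees when the processing was varied. Bmp6, Bmp7, Id2 and Id3 stayed above 0 and Id4 stayed below 0 under every one of 21 alternatives, and Bmp4, Bmpr1a, Bmpr1b, Bmpr2 and Id1 crossed 0 under some of them. In all, 182 of 208 values kept the direction, 0 passed an adjusted p of 0.05, and the lowest adjusted p was 0.251 (Id4, without ErbB4-/- replicate 4). When WT replicate 1 and ErbB4-/- replicate 3 were both left out, a choice made after seeing the data, the log2 fold change was 0.26 for Bmp7, 0.17 for Bmp6, 0.16 for Id2, 0.22 for Id3 and −0.18 for Id4.

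**Figure D5:**
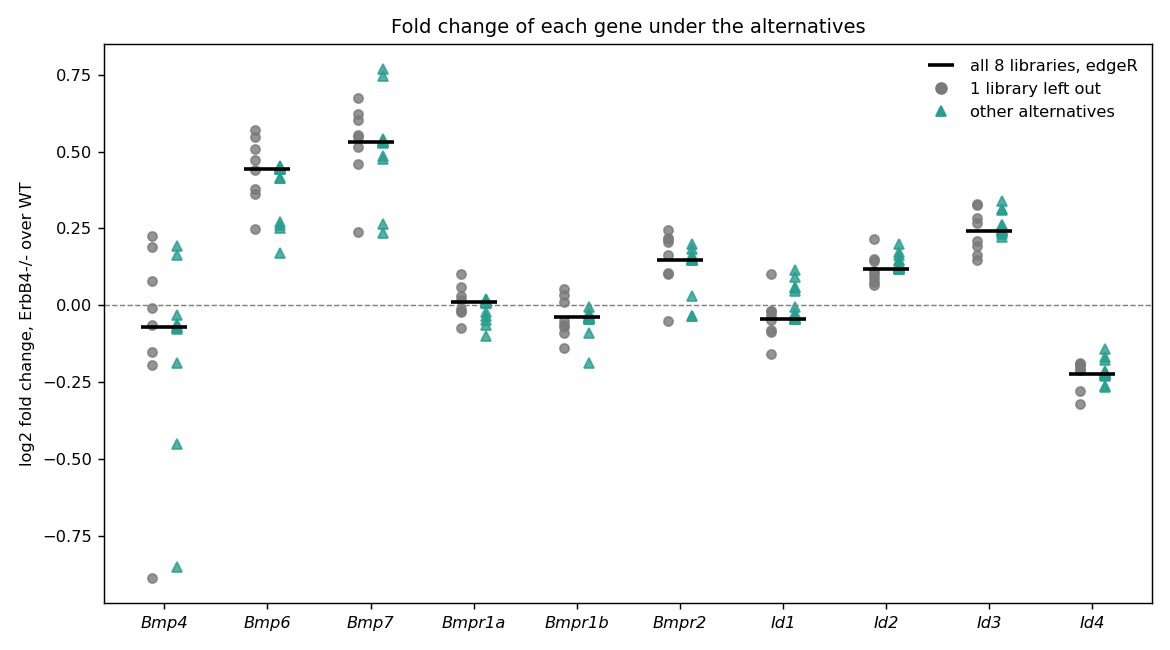
Log2 fold change of libraries labelled ErbB4-/- over WT for each of the 10 genes, with all libraries (line), with each library left out in turn (circles) and under the other alternatives (triangles). Bmp7 reaches down to 0.24 without ErbB4-/- replicate 3 and Id4 lies between −0.32 and −0.14.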

How the data were processed

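The authors made unstranded polyA libraries, aligned the single-end reads with HISAT (mm9) and summed them by gene using HTSeq-count. The annotation, the counting mode and the tool versions are not given in the sources used here. The deposited files hold raw counts, 1 whole number per gene symbol and library, and a deposited DESeq2 table of the authors' own comparison (log2 fold changes and p-values) was not used.

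The counts were fitted with edgeR 4.0.16 in R 4.3.3 with genotype as the only term (TMM normalization, filterByExpr at min.count 10 and min.total.count 15, quasi-likelihood F test, Benjamini-Hochberg adjustment over all genes kept, threshold 0.05). Log2 CPM has a prior count of 2. Single genes were also compared with an exact two-sided permutation test. Genotypes and replicate numbers came from the labels. Levels per length used the longest transcript of GENCODE for NCBIM37. The procedure was tested on simulated data. The members and lists were chosen with earlier results of these data known. The genes named are the 10 members, the genes of the pathway lists with an unadjusted p under 0.05, the most abundant gene of each list and the 3 genes most correlated with each Id gene, and others (Erbb4, Xist, Ttr, Sostdc1, Msx1, the radial glia markers) were chosen after their values were seen. The alternatives were DESeq2 1.42.0, limma-voom 3.58.1, normalization by relative log expression or upper quartile, genes unfiltered or filtered at 50 counts on average, removal of the 10 most abundant genes, a replicate block, Xist as a covariate, low-Xist libraries alone, the trend with transcript length removed, a prior count of 0.5, and each library left out.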

Additional observations from a re-analysis of the deposited data

Results flagged for a closer look

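In 20 sets of 4 libraries (10 genes in each genotype), a single library lay far from the other 3 in 2 cases, where chance gives about 1 in 20. Bmpr2 had 32.4 CPM in WT replicate 1, against 65.1 to 69.6 CPM in the other WT libraries. Id4 had 169 CPM in ErbB4-/- replicate 4, against 132 to 134 CPM in the other libraries labelled ErbB4-/- and 145 to 176 CPM in WT.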

How the results depend on the processing

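Of the 10 genes, 0 were called under all 21 alternatives, and so were 0 of the other pathway genes. The number of all genes called, 4, was 23 with DESeq2, 2 with the length trend removed and 1 with relative log expression or upper-quartile normalization, without the 10 most abundant genes, with the replicate block, with Xist as a covariate, with low-Xist libraries alone or with the length trend and ErbB4-/- replicate 3 both removed (a choice made after seeing the data). It was 1 to 13 with single libraries left out. Fold changes on the log2 scale changed sign as follows. Bmp4 was at 0.16 with Xist as a covariate, 0.19 with low-Xist libraries alone and −0.89 to 0.23 with single libraries left out. Bmpr1a was at −0.0212 and −0.0485 in the first 2 of these, −0.0363 with the length trend removed, −0.10 without WT replicate 1 and ErbB4-/- replicate 3, −0.0629 with the length trend and ErbB4-/- replicate 3 removed, and −0.0745 to 0.10 with single libraries left out. Bmpr1b was at −0.14 to 0.0515 with single libraries left out. Bmpr2 was at −0.0346 with low-Xist libraries alone, −0.0339 with both libraries left out, and −0.0504 to 0.24 with single ones. Id1 was at 0.0605, 0.0907, 0.0463, 0.12 and 0.0568 under the 5 settings given for Bmpr1a, and −0.16 to 0.10 with single libraries left out. The causes were not tested. Bmp4 was not tested with a mean of at least 50 counts or with both libraries left out. After each genotype's mean was subtracted per gene, same-numbered libraries of the genotypes correlated at 0.0837, 0.135, 0.0476 and 0.0236 (replicates 1 to 4). The highest correlation of each WT library with a differently numbered one was 0.0103, 0.0592, 0.154 and 0.0295. These values do not settle whether the numbers are pairs. The labels name no pairs, and the numbers were not taken as such in the main fit. With the replicate block 0 of the 10 genes were called. Bmp4 rests on 3 to 29 reads per library, the fewest of the 10 genes, and the parts of depth and of spread between libraries in its error were not separated.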
